A study of Mus musculus with 20 samples.

Results

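The comparison described here sets the 5 night libraries of wild-type mouse hypothalamus against the 5 day libraries, across all genes. They are 10 of the 20 libraries of a study of mice that lack both Magel2 and Ndn, genes of the Prader-Willi region, and are chosen by genotype and by the time letter in the library name. All 10 come from C57BL/6J mice (WT) kept on cycles of 12 h of light and 12 h of dark with free food and water. WT_night libraries come from mice sampled 18 h after light on, in the middle of the dark phase when mice are active, and WT_day libraries from mice sampled 6 h after light on, in the middle of the rest phase. The other 10 libraries are from mice with the double deletion (KO), sampled at the same times, and enter only 1 comparison near the end. Total RNA was depleted of ribosomal RNA and sequenced, and the libraries held 34221129 to 38373712 assigned reads at night and 34812131 to 48697647 by day. The labels give no age or sex, and do not say whether the 5 libraries of a group are 5 animals, so each p-value measures the spread between these samples, which may be technical.

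The hypothalamus holds the suprachiasmatic nucleus, the central clock that is set by light, and the neurons that drive feeding, body temperature, stress hormones and reproduction. The clock is a feedback loop. The proteins ARNTL (BMAL1) and CLOCK, or NPAS2 in its place, bind E-boxes and switch on Per, Cry, Nr1d and Dbp genes. PER and CRY proteins then block ARNTL and CLOCK, while the REV-ERB proteins made from Nr1d1 and Nr1d2 repress Arntl. Adrenal corticosterone, which in mice is lowest around the morning and highest around dusk, reaches the brain and induces its own set of genes there.

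Levels are CPM, counts scaled to each library's total of assigned reads and adjusted between libraries by TMM factors, and differences are log2 values, night minus day. The value after ± is the SD over 5 libraries for a level and the standard error for a difference. A gene rose or fell where edgeR's quasi-likelihood test gave a Benjamini-Hochberg adjusted p under 0.05 over the 21393 genes tested, and any p below is that adjusted p. By that rule 383 genes passed, 1.79% of those tested, of which 167 rose at night (0.781%) and 216 fell (1.01%). In 1216 genes (5.68%) the 5 night libraries lay wholly above or below the 5 day libraries, 493 above (2.3%) and 723 below (3.38%), and 328 of the 383 were among these. With mitochondrially encoded genes left out of the totals 411 passed, with the split turned to 240 rising and 171 falling. The count depended on each library, as the bars by left-out library show. Leaving out a night library, from WT_night 1 to WT_night 5, gave 186, 87, 248, 1849 and 202 genes, and leaving out a day library, from WT_day 1 to WT_day 5, gave 85, 207, 85, 145 and 48. In all 10 of these fits 40 genes passed, among them Tsc22d3, Mt1, Mt2, Fosb, Txnip, Fabp7, Bc1, Psmb3, Hist2h2ac, Col1a1, Col5a1, Gkn3, Trabd2b, Notch1, Notch3, Hes5, Fat4, Celsr2 and Dchs1, all described below. Dbp, Fmod and Cyp26b1 passed in all but the fit without WT_day 5 (adjusted p = 0.0507, 0.0507 and 0.0625), and Zbtb16 in all but those without WT_day 5 (0.0667) and WT_night 2 (0.0506).

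The labels of 2 libraries are in doubt. For the library labelled WT_day 3, both genes deleted in KO speak against the label. Ndn was at 30.9 CPM there (1480 counts, exact 95% interval 29.3 to 32.5 on the same scale, counting error only), against 273 ± 31.1 in the 9 other WT libraries (SD), or 11.3% of their mean. Magel2 was at 2.15 CPM there (103 counts) against 17.4 ± 1.34, or 12.4%. Without it, 85 genes passed of 21612 (0.393%), 47 rising (0.217%) and 38 falling (0.176%), and 83 of them were among the 383, each with the same direction. The time field of the library labelled WT_night 1 says day while its title says night, and it was kept by its title. Without both libraries 37 genes passed (0.173%), 21 rising (0.0981%) and 16 falling (0.0748%), 34 of them among the 83. For genes that passed, the adjusted p with the library labelled WT_day 3 left out is therefore given too, directions drawn from WT_day include that library unless the text says otherwise, and for genes that passed that way too, the p without both libraries follows, under the words "without both".

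Genes that define the hypothalamus were expressed in all 10 libraries, though markers of a neighbouring region were too. The summed level of 8 hypothalamus-defining genes was 674 to 859 CPM at night and 837 to 978 CPM by day. Hcrt, which encodes the wake-promoting peptide orexin of the lateral hypothalamus, was at 70.1 to 88.2 CPM at night and 81.4 to 105 CPM by day. Summed markers of cortex and hippocampus were at 41.3 to 45.0 CPM at night and 36.9 to 41.2 CPM by day. Summed markers of thalamus were at 547, 529, 643, 376 and 433 CPM in WT_night 1 to 5 and at 440 to 482 CPM by day. Most of that sum was Rora, which is also a clock gene (324 to 577 CPM at night). WT_night 3 had the highest thalamus sum and the lowest hypothalamus sum. Whether the dissections differed was not tested. Pituitary markers differed widely between libraries, at 31.5 to 201 CPM at night and 49.0 to 886 CPM by day, with the highest sums in WT_night 4 and WT_day 1. In a principal component analysis the second axis (15.9% of the variance) had all night libraries on one side and all day libraries on the other, while the first (22.2%) ran mostly between the night libraries, from WT_night 3 at one end to WT_night 4 at the other.

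**Figure D1:**
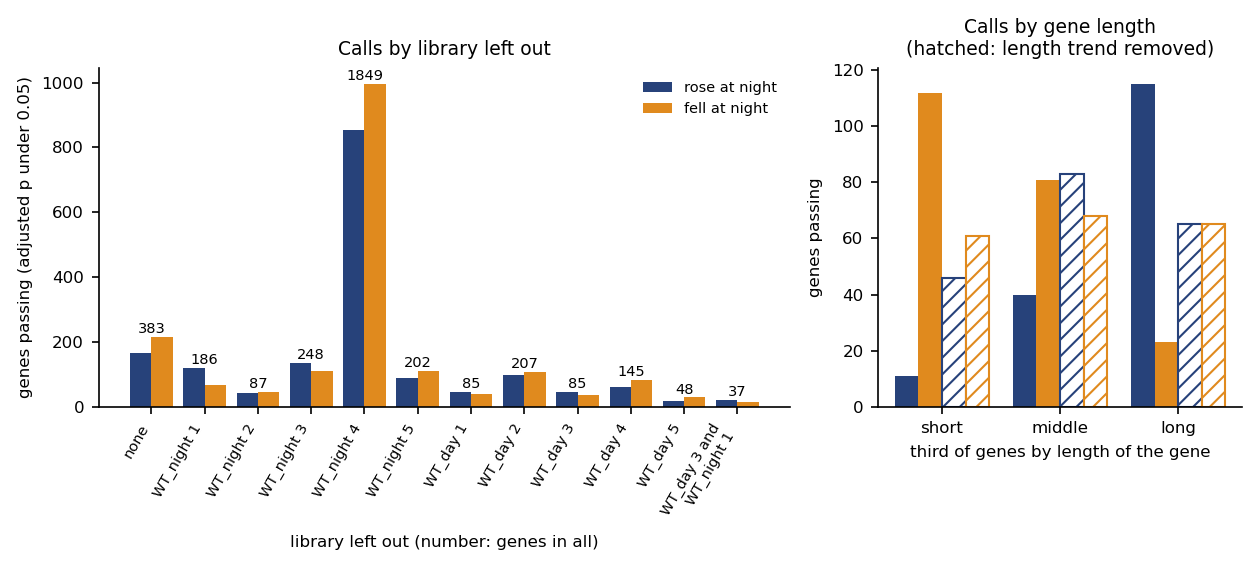
Left, genes that rose (blue) or fell (orange) at night when the library named under the bars was left out, with the total above each pair. The total was 383 with all 10 libraries, 48 without WT_day 5 and 1849 without WT_night 4. Right, the same calls with all libraries, for 3 equal sets of genes by length, with hatched bars after a trend with gene length was removed from each library. Of the genes that passed before that removal, most long ones rose and most short ones fell.

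Of the clock genes, 1 activator rose and 1 output gene fell, and no other member passed. Arntl (ENSMUSG00000055116, chromosome 7, 113207465 to 113314126 in GRCm38), which encodes the activator BMAL1, had 31.3, 31.8, 38.8, 36.01 and 35.4 CPM at night and 29.6, 29.7, 27.98, 26.5 and 25.9 CPM by day. Every night library lay above every day library. Arntl rose by 0.31 ± 0.0606 (1.24-fold, adjusted p = 0.0235), but did not pass without the library labelled WT_day 3 (0.32, adjusted p = 0.0596), although its difference was of the same size. Dbp (chromosome 7, 45705088 to 45710203), a PAR bZIP transcription factor that carries clock timing to other genes, had 25.8, 25.7, 22.6, 21.5 and 22.3 CPM at night against 31.96, 29.3, 28.7, 38.5 and 34.6 CPM by day. Here all night libraries lay below all day libraries. Dbp fell by 0.47 ± 0.0778 (1.38-fold, adjusted p = 0.0153), also when the library labelled WT_day 3 was left out (adjusted p = 0.0179) and without both doubted libraries (0.0279). Dbp overlaps Sphk2 on the opposite strand, whose level was 23.2 ± 0.597 CPM at night and 27.2 ± 2.65 CPM by day (log2 -0.23 ± 0.0571, adjusted p = 0.0529). The counts do not tell strands apart, so these reads cannot be split between the 2 genes.

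The remaining activators did not pass. Npas2, which can stand in for CLOCK, had 22.8, 22.1, 28.99, 22.4 and 22.8 CPM at night and 19.3, 20.03, 20.9, 18.2 and 22.4 CPM by day (log2 0.24 ± 0.0757, adjusted p = 0.104). WT_day 5 reached into the night range, and WT_night 3 stood far above the other night libraries. Clock was at 0.01 (adjusted p = 0.939), with mean levels of 131 ± 4.67 CPM at night and 131 ± 3.61 CPM by day, and Arntl2 was at 0.02. All 4 activators had a positive difference, with a median of 0.13, but Clock turned to -0.04 with the length trend removed and Arntl2 to -0.02 without both doubted libraries. Of all genes tested 49.7% had a positive difference, with a median of -0.0012.

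Of the 7 repressors tested none passed, and 5 had a negative difference, with a list median of -0.12. Ciart, which encodes a repressor of CLOCK and ARNTL, had 4.41, 4.05, 5.29, 4.17 and 3.83 CPM at night and 5.64, 5.42, 6.11, 5.53 and 4.99 CPM by day. Its difference was -0.35 ± 0.0944 (adjusted p = 0.0697), and only WT_night 3 and WT_day 5 made the groups overlap. Reads of Ciart are shared with C920021L13Rik on the opposite strand (-0.24). Per1, the light- and hormone-inducible Period gene, had 12.96, 14.7, 14.8, 14.6 and 12.6 CPM at night and 16.2, 14.1, 19.4, 15.3 and 15.9 CPM by day (-0.21 ± 0.07996, adjusted p = 0.153), with its highest value in the library labelled WT_day 3. Bhlhe40 was at -0.20 ± 0.0488 (adjusted p = 0.0529) and Bhlhe41 at -0.12 ± 0.0338 (adjusted p = 0.0759), both of which encode E-box repressors. Per2 was at -0.11 (adjusted p = 0.213), Cry1 at 0.09 (adjusted p = 0.257) and Cry2 at 0.00 (adjusted p = 0.984). Per3 lies inside Camta1 on the same strand (346 ± 50.3 CPM at night and 314 ± 4.89 CPM by day) and is listed at 0 in every library.

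In the second loop, the pair of REV-ERB genes lay lower at night without passing. Nr1d1 had 98.5, 100.4, 91.05, 106 and 103 CPM at night and 109, 109, 114, 114 and 112 CPM by day (-0.16 ± 0.0437, adjusted p = 0.0726). Nr1d2 had 115, 108, 105, 109 and 117 CPM at night and 127, 129.8, 126, 119 and 121 CPM by day (-0.17 ± 0.0423, adjusted p = 0.0524). In both genes every night library lay below every day library. With the trend with gene length removed, Nr1d2 passed (adjusted p = 0.0382) and Nr1d1 did not (adjusted p = 0.109). Nr1d1 overlaps Thra on the opposite strand, which was at -0.06 (adjusted p = 0.425). Rora was at 0.14, Rorb at 0.01 and Nfil3 at -0.01. The remaining output factors Tef and Hlf were at -0.08 (adjusted p = 0.334) and 0.09 (adjusted p = 0.292). None of the 9 genes for enzymes and partners that modify clock proteins passed, with Timeless at 0.34 ± 0.135 (adjusted p = 0.183) the farthest from 0 and Csnk1d at -0.05 among the others.

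**Figure D2:**
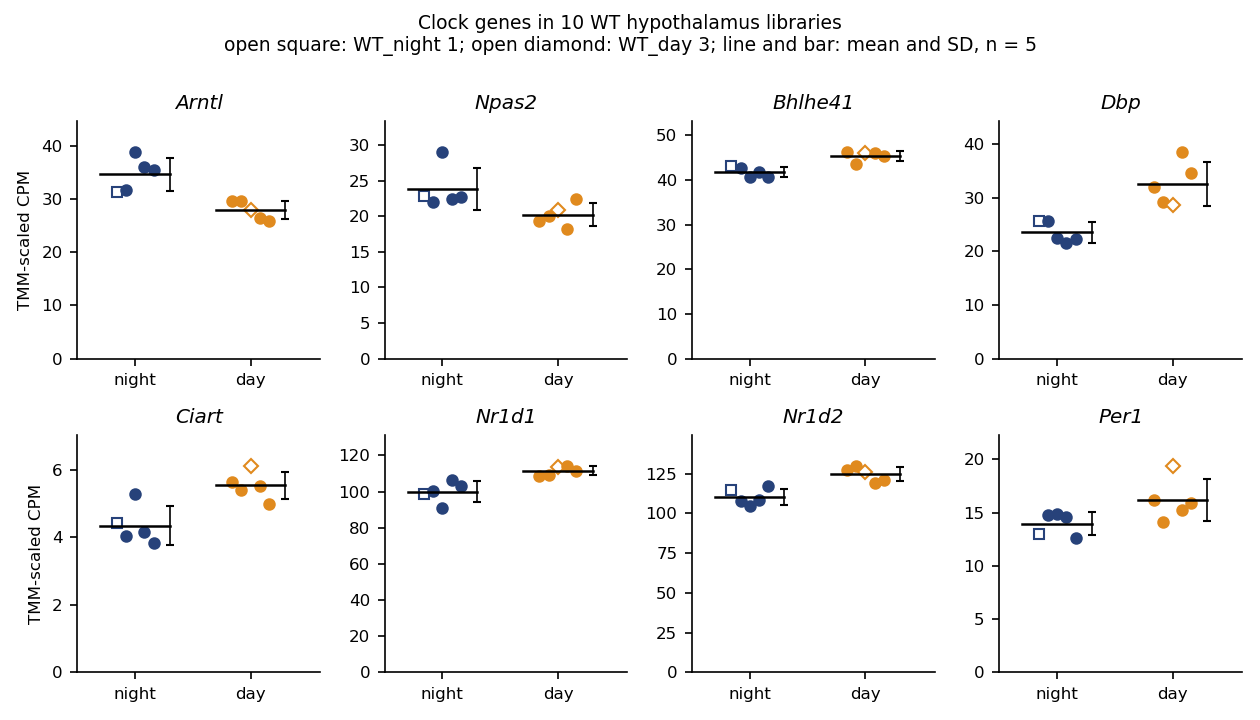
Level in CPM of 8 clock genes in each library, night on the left and day on the right of each panel. Lines are group means and bars SDs over 5 libraries. Arntl lies higher at night and Dbp, Nr1d1, Nr1d2 and Bhlhe41 lower with no overlap, while Npas2, Ciart and Per1 overlap, and only Arntl and Dbp passed the test.

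Promoters were searched for short elements, each given as a string of letters in which N is any letter. RefSeq windows of 300 bases (250 before to 50 after a start, GRCm38.p6) were found for 13690 of the 21393 genes tested. An E-box (CACGTG, the same on both strands) was in 10.5% of these, in 8.7% of the 115 that rose and in 9.9% of the 162 that fell. The ROR and REV-ERB element (TNGGTCA, both strands) was in 11.6%, 6.1% and 10.5% of the same 3 sets, and the D-box (TTANGTAA, both strands) in 2.0%, 3.5% and 1.2%. The cAMP response element (TGACGTCA) was in 3.1%, 0.9% and 3.1%. The glucocorticoid response element (ACANNNTGT) was in 5.8%, 5.2% and 4.3%. The windows of 3 clock genes are shown with the matches in capitals. A match says only that the letters are there, not that a protein binds them. Since TNGGTCA is a loose form, a match need not be an element in use, and variants of an element are not marked. In Arntl (chr7:113207261-113207560, plus strand) the capitals mark 3 matches to the ROR and REV-ERB element, in Ciart (chr3:95882179-95882478, minus strand) 3 E-boxes and in Per1 (chr11:69098699-69098998, plus strand) 1 E-box. Both Arntl and Per1 have a further window at another start, where Arntl (chr7:113207215-113207514) has 2 matches to the ROR and REV-ERB element and Per1 (chr11:69099902-69100201) has 0 E-boxes.
Arntl: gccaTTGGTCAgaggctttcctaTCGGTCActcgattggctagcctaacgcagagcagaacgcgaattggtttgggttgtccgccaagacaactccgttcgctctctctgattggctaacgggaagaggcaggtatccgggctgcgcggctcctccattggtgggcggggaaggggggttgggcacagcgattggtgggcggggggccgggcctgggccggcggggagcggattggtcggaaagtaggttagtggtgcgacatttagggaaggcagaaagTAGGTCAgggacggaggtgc
Ciart: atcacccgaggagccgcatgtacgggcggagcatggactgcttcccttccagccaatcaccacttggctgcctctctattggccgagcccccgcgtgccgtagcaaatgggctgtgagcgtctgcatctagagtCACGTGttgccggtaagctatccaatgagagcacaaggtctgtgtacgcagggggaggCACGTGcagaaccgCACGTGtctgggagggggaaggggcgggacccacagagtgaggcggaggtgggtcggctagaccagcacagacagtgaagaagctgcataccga
Per1: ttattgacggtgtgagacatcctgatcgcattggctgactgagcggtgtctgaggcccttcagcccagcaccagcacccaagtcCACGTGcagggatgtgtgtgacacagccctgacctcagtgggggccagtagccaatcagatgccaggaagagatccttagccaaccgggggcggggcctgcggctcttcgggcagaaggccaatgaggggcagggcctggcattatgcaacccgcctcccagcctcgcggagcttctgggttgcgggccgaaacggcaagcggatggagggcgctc
The window of Dbp (chr7:45704997-45705296, plus strand) had 0 matches to the E-box, the D-box and the ROR and REV-ERB element, which says only that these letters are not in this window.

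Of the 13 peptides and receptors of the suprachiasmatic nucleus 1 rose, where 0.781% of all genes tested rose. Vipr2, the receptor for vasoactive intestinal peptide that keeps clock neurons in step, had 8.28, 9.88, 6.57, 7.98 and 6.72 CPM at night and 5.18, 5.73, 4.4, 5.53 and 4.91 CPM by day, without overlap. It rose by 0.62 ± 0.112 (1.53-fold, adjusted p = 0.01799), and was at the threshold without the library labelled WT_day 3 (adjusted p = 0.0506). Its ligand gene Vip was at -0.12 (adjusted p = 0.693). Gm20658 on the opposite strand had 0.372 times the level of Vipr2, and the counts do not tell strands apart. Rgs16, a regulator of G-protein signalling that cycles in these neurons, had 6.96, 7.34, 6.67, 10.5 and 10.6 CPM at night and 12.3, 13.8, 11.6, 10.8 and 10.9 CPM by day (-0.50 ± 0.127, adjusted p = 0.0552). All 5 night values lay below all 5 day values. Prok2, an output peptide of the nucleus, was at 0.599 ± 0.145 CPM at night and 0.944 ± 0.205 CPM by day, also without overlap (-0.66 ± 0.209, adjusted p = 0.105). The list median was 0.11.

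Genes induced by glucocorticoids lay lower at night as a group. Of the 14 tested 5 fell, none rose, 9 did not pass, and all 14 had a negative difference, with a median of -0.42 (-0.27 without the library labelled WT_day 3). Ddit4 and Errfi1 turned to 0.03 and 0.05 without that library, and Errfi1 was at 0.0003 with the length trend removed. The same 5 genes fell without that library, and 3 of them (Tsc22d3, Zbtb16 and Mt2) without both doubted libraries. The summed level of the 14 genes was 322 to 352 CPM at night and 406 to 495 CPM in 4 day libraries, with 640.4 CPM in the library labelled WT_day 3. Tsc22d3 (chromosome X, 140539528 to 140600659), which encodes the anti-inflammatory protein GILZ, had 70.97, 66.7, 59.6, 78.97 and 70.6 CPM at night and 90.3, 94, 134, 95.3 and 104 CPM by day. No night value reached the lowest day value, and the library labelled WT_day 3 was the highest. Tsc22d3 fell by 0.58 ± 0.0973 (1.49-fold, adjusted p = 0.0153), and by 0.46 without that library (adjusted p = 0.0179, or 0.03196 without both). Zbtb16, a hormone-induced zinc finger factor, had 18.9, 22.6, 23.6, 18.8 and 18.2 CPM at night and 32.95, 27.7, 64.98, 33.1 and 39.6 CPM by day. The groups were apart, and the library labelled WT_day 3 stood above the other day libraries. Zbtb16 fell by 0.96 ± 0.181 (adjusted p = 0.0216), and by 0.70 without that library (adjusted p = 0.01199, or 0.0279 without both). Klf9, a hormone-induced Krüppel-like factor, had 47.8, 49.6, 45.2, 47.3 and 48.6 CPM at night and 55.6, 53.8, 74.05, 55.4 and 57.95 CPM by day, and fell by 0.32 ± 0.0729, or by 0.22 without that library (adjusted p = 0.0438, or 0.0429 with the library labelled WT_day 3 left out and 0.0734 without both).

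The metallothioneins, metal-binding proteins induced by zinc as well as by glucocorticoids, fell as well. Mt1 had 61.4, 63.1, 56.7, 63.3 and 60.5 CPM at night and 74.4, 75.5, 91.6, 85.02 and 107 CPM by day, and fell by 0.51 ± 0.0821 (1.42-fold, adjusted p = 0.0115, or 0.0361 with the library labelled WT_day 3 left out and 0.0641 without both). Mt2 had 21.1, 19.8, 19.8, 20.9 and 18.5 CPM at night and 31.04, 27.8, 39.1, 42.9 and 48 CPM by day, and fell by 0.91 ± 0.117 (1.88-fold, adjusted p = 0.00403, or 0.01199 with the library labelled WT_day 3 left out and 0.0279 without both). In both genes all night libraries lay below all day libraries, and WT_day 5 was the highest. The reads of Mt2 are shared with Gm45774 on the opposite strand, whose count was 1.01 times that of Mt2, so the call stands for the pair. Of the members that did not pass, Sgk1, a hormone-induced kinase, had 26.8 to 31.3 CPM at night and 32.6 to 93.2 CPM by day, with the day maximum in the library labelled WT_day 3 (-0.75 ± 0.2297, adjusted p = 0.0956, and -0.35, adjusted p = 0.0518 without it). Fkbp5, a chaperone of the glucocorticoid receptor, was at -0.31 ± 0.118 (adjusted p = 0.159), likewise with its maximum of 33.4 CPM there, and at -0.14 without it (adjusted p = 0.2905). The library labelled WT_day 3 also had the highest level of Klf9. Cdkn1a was at -0.60 (adjusted p = 0.0842), Plin4 at -0.62 (adjusted p = 0.139), Nfkbia at -0.33, Pdk4 at -0.25, Ddit4 at -0.14 and Errfi1 at -0.03.

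Early genes that neurons switch on with activity were lower at night too. Of 22 tested 5 fell, none rose and 17 did not pass, with a median of -0.29 and 5 members higher at night. Without the library labelled WT_day 3 only Fosb passed. Fosb (chromosome 7, 19302696 to 19310051), a partner of the AP-1 factor, had the largest fall among the named genes. Its level was 0.548, 0.5303, 0.313, 0.6204 and 0.319 CPM at night and 1.56, 1.4, 1.61, 2.17 and 1.32 CPM by day. All night libraries lay below all day libraries, and Fosb fell by 1.78 ± 0.213 (3.44-fold, adjusted p = 0.00284, 0.0104 with the library labelled WT_day 3 left out and 0.02702 without both doubted libraries). Fos, the classical marker of active neurons, had 2.77, 2.93, 3.52, 4.64 and 4.898 CPM at night and 6.28, 8.08, 6.76, 6.05 and 4.99 CPM by day. The groups did not overlap, though WT_night 5 and WT_day 5 lay close. Fos fell by 0.78 ± 0.159 (adjusted p = 0.0277, or 0.0736 with the library labelled WT_day 3 left out).

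The other early genes that fell were Fosl2, Nr4a1 and Junb. Fosl2, another AP-1 partner, was at 9.72 ± 1.77 CPM at night and 14.3 ± 1.06 CPM by day, and fell by 0.56 ± 0.101 (adjusted p = 0.0174, or 0.0518 with the library labelled WT_day 3 left out). Nr4a1, an orphan nuclear receptor, was at 4.76 ± 0.433 CPM at night and 6.39 ± 0.789 CPM by day and fell by 0.43 ± 0.0955 (adjusted p = 0.0383, or 0.0991 with the library labelled WT_day 3 left out). Junb was at 13.9 ± 1.598 CPM at night and 17.5 ± 1.34 CPM by day and fell by 0.33 ± 0.0769 (adjusted p = 0.04398, or 0.114 with the library labelled WT_day 3 left out), with overlap at WT_night 4 and WT_day 4. Egr1 was at -0.61 ± 0.158 (adjusted p = 0.0611), Egr3 at -0.62 (adjusted p = 0.0894), Egr4 at -0.97 (adjusted p = 0.0804), Dusp1 at -0.33 (adjusted p = 0.0742), Npas4 at -0.37 and Arc at -0.15. Jun, Ier5, Egr2, Nr4a2 and Nptx2 were the 5 on the higher side, from 0.01 to 0.17, none of which passed. In bulk tissue fewer cells with a transcript and less of it per cell cannot be told apart, here and below.

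**Figure D3:**
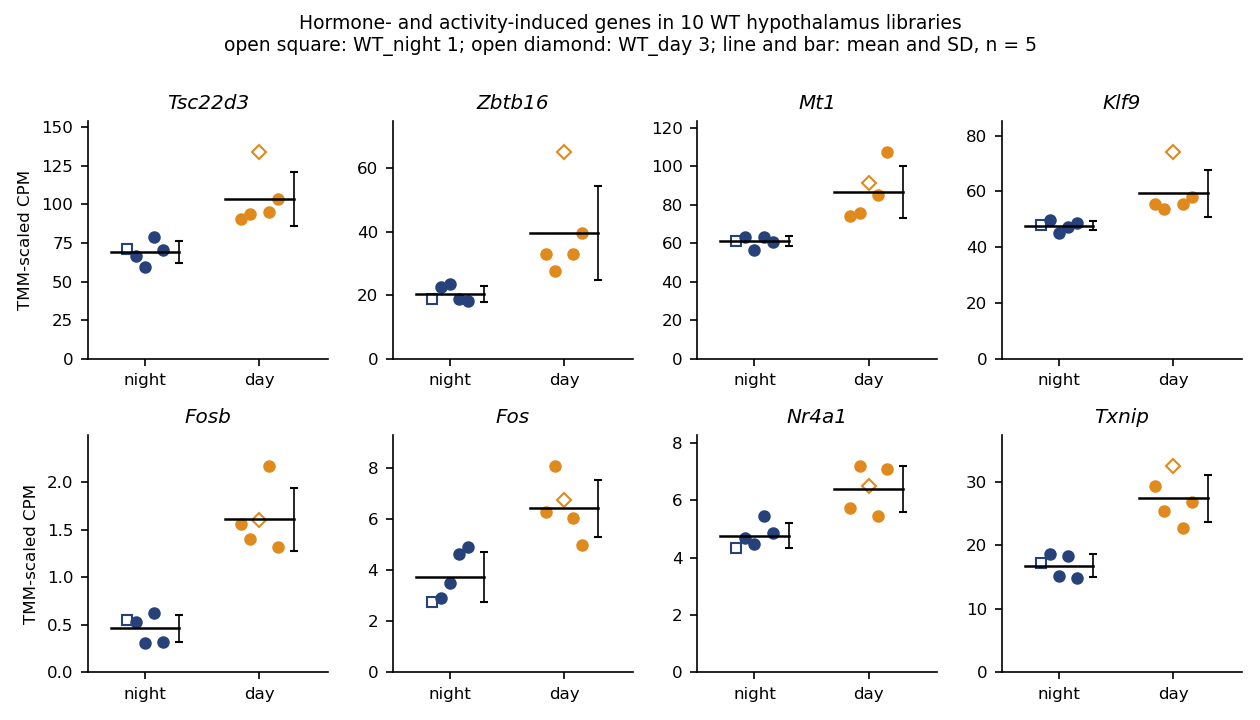
Level in CPM of 4 glucocorticoid-induced genes (Tsc22d3, Zbtb16, Mt1 and Klf9), 3 early genes (Fosb, Fos and Nr4a1) and Txnip in each library, night left of day, with group means and SDs (n = 5). No night value reaches the lowest day value in any panel, and the open diamond of the library labelled WT_day 3 is the highest point for Tsc22d3, Zbtb16, Klf9 and Txnip.

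Further genes among the 15 largest falls were Txnip, Fabp7, Hif3a, Xdh, Apold1, Nostrin, Icosl, Smim3 and Bc1. Txnip, the thioredoxin-binding arrestin that restrains glucose uptake, had 17.2, 18.6, 15.1, 18.4 and 14.8 CPM at night and 29.4, 25.5, 32.5, 22.8 and 26.8 CPM by day, with no overlap. It fell by 0.71 ± 0.0896 (1.63-fold, adjusted p = 0.00403, 0.0104 with the library labelled WT_day 3 left out and 0.02702 without both doubted libraries). Gm15441 on the opposite strand held 1.01 times as many reads, so the call stands for the pair. Fabp7, the brain fatty acid-binding protein of astrocytes and progenitors, had 10.8, 10.6, 11.7, 16.6 and 16.1 CPM at night and 21.2, 20.2, 22.98, 20.8 and 23.4 CPM by day and fell by 0.72 ± 0.113 (adjusted p = 0.0111, or 0.0357 with the library labelled WT_day 3 left out and 0.0578 without both). All its night values lay below all its day values. Hif3a, a hypoxia-inducible factor subunit, was at 2.92 ± 0.904 CPM at night and 5.44 ± 1.36 CPM by day and fell by 0.90 ± 0.1995 (adjusted p = 0.0376, or 0.102 with the library labelled WT_day 3 left out). Xdh, xanthine dehydrogenase of purine breakdown, was at 3.25 ± 0.872 CPM at night and 5.33 ± 1.09 CPM by day and fell by 0.71 ± 0.171 (adjusted p = 0.0484, or 0.1202 with the library labelled WT_day 3 left out).

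Apold1, an immediate early gene of endothelium, was at 2.51 ± 0.4504 CPM at night and 4.01 ± 0.487 CPM by day and fell by 0.68 ± 0.13 (adjusted p = 0.0219, or 0.0573 with the library labelled WT_day 3 left out). Nostrin, which binds endothelial nitric oxide synthase, fell by 0.61 ± 0.123 (adjusted p = 0.0277, or 0.0746 with the library labelled WT_day 3 left out). Icosl, a ligand of the T-cell costimulator ICOS, fell by 0.62 ± 0.132 (adjusted p = 0.0312, or 0.0441 with the library labelled WT_day 3 left out and 0.0832 without both) and Smim3, a small membrane protein, by 0.58 ± 0.104 (adjusted p = 0.0174, or 0.0431 with the library labelled WT_day 3 left out and 0.0832 without both). Bc1, a small noncoding RNA of dendrites that represses translation, was at 6.7 ± 1.07 CPM at night and 10.3 ± 0.528 CPM by day and fell by 0.62 ± 0.0922 (adjusted p = 0.0109, or 0.0287 with the library labelled WT_day 3 left out and 0.0543 without both). Icosl, Smim3 and Bc1 had no overlap between the groups, while Nostrin, Hif3a and Xdh did.

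Of the 15 genes with the largest rises 7 encode matrix proteins (Fmod, Col1a1, Col1a2, Omd, Fn1, Aebp1 and Col6a1), and markers of meninges and fibroblasts moved with them. Cyp26b1, which breaks down retinoic acid, had the largest rise. It had 5.84, 8.65, 3.94, 3.93 and 3.01 CPM at night and 1.99, 2.09, 2.13, 0.913 and 1.398 CPM by day, so that the night libraries varied more than 2-fold among themselves but all lay above the day libraries. Cyp26b1 rose by 1.56 ± 0.274 (2.94-fold, adjusted p = 0.0174, or 0.0361 with the library labelled WT_day 3 left out and 0.0641 without both). Fmod, the collagen-binding proteoglycan fibromodulin, had 12.9, 17.1, 11.1, 16.1 and 14.1 CPM at night and 7.68, 8.98, 9.801, 5.22 and 7.59 CPM by day and rose by 0.85 ± 0.143 (1.805-fold, adjusted p = 0.0153, or 0.0179 with the library labelled WT_day 3 left out and 0.0279 without both). The groups did not overlap, and WT_day 4 was the lowest.

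The chains of type I collagen rose together. Col1a1 (chromosome 11, 94936224 to 94953042) had 5.84, 8.21, 9.05, 9.66 and 10.5 CPM at night and 5.08, 4.83, 4.94, 4.51 and 5.18 CPM by day. The day libraries were close to one another, and the lowest night library was WT_night 1, whose time labels conflict. Col1a1 rose by 0.81 ± 0.124 (1.76-fold, adjusted p = 0.0111, 0.0287 with the library labelled WT_day 3 left out and 0.00296 without both doubted libraries). It was also the 1 gene that passed when the time field replaced the title (log2 0.89, adjusted p = 7.33e-04). Col1a2 had 24.7, 30.3, 22.8, 36.1 and 31.2 CPM at night and 19.02, 19.3, 22, 12.6 and 18.7 CPM by day and rose by 0.66 ± 0.133 (adjusted p = 0.0277, or 0.0395 with the library labelled WT_day 3 left out and 0.0433 without both). Fn1, fibronectin, was at 46.2 ± 7.46 CPM at night and 30.8 ± 5.505 CPM by day and rose by 0.58 ± 0.119 (adjusted p = 0.02896, or 0.0334 with the library labelled WT_day 3 left out and 0.0543 without both). Aebp1, a collagen-binding matrix protein, rose by 0.57 ± 0.114 (adjusted p = 0.0262, or 0.0393 with the library labelled WT_day 3 left out and 0.0543 without both), and Col6a1 by 0.53 ± 0.108 (adjusted p = 0.0277, or 0.0518 with the library labelled WT_day 3 left out). Omd, the proteoglycan osteomodulin, rose by 0.61 ± 0.146 (adjusted p = 0.0495, or 0.0696 with the library labelled WT_day 3 left out), but lies inside Cenpp on the opposite strand, which rose too (0.29, adjusted p = 0.0302).

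Of the 8 fixed markers of meninges and fibroblasts 7 were tested, and Igf2 is listed at 0. Of the 7, 3 rose (Col1a1, Col1a2 and Slc6a13), 4 did not pass, and all 7 were higher at night, with a median of 0.53 and the same number rising without the library labelled WT_day 3 and without both doubted libraries. Slc6a13, a GABA and taurine transporter of the meninges, had 9.73, 13.2, 10.4, 14.98 and 12.2 CPM at night and 6.92, 8.96, 10.6, 7.36 and 7.81 CPM by day and rose by 0.53 ± 0.127 (adjusted p = 0.0481, or 0.0405 with the library labelled WT_day 3 left out and 0.0279 without both), with overlap at the library labelled WT_day 3. Col3a1 was at 0.69 ± 0.173 (adjusted p = 0.0549), Ogn at 0.51 ± 0.139 (adjusted p = 0.0706), Dcn at 0.35 (adjusted p = 0.131) and Lum at 0.30 (adjusted p = 0.389). The summed level of the 7 markers was 81.6 to 128 CPM at night and 54.7 to 80.1 CPM by day, so that the lowest night library lay just above the highest day library. The part of meningeal tissue in the rises of matrix genes was not tested.

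Further genes of the same kind among the largest rises were Osr1 and Tbx15, transcription factors of mesenchyme, with rises of 0.87 ± 0.177 (adjusted p = 0.0277, or 0.0573 with the library labelled WT_day 3 left out) and 0.70 ± 0.167 (adjusted p = 0.0484, or 0.113 with the library labelled WT_day 3 left out). Gkn3, a gastrokine that in mouse brain marks arterial endothelium, had 2.0, 2.34, 1.36, 2.07 and 1.33 CPM at night and 0.536, 0.925, 0.7299, 0.941 and 0.603 CPM by day and rose by 1.28 ± 0.207 (2.44-fold, adjusted p = 0.0115, or 0.0361 with the library labelled WT_day 3 left out and 0.0641 without both). Anpep, an aminopeptidase, had 1.67, 2.48, 1.93, 2.57 and 2.35 CPM at night and 1.17, 1.06, 1.56, 1.17 and 1.26 CPM by day and rose by 0.81 ± 0.153 (adjusted p = 0.0216, or 0.0332 with the library labelled WT_day 3 left out and 0.02702 without both). In Gkn3 and Anpep the groups were apart. Trabd2b, a membrane protease that acts on Wnt proteins, rose by 0.66 ± 0.107 (adjusted p = 0.0115, or 0.0327 with the library labelled WT_day 3 left out and 0.0543 without both) and Ranbp3l, a nuclear export factor, by 0.55 ± 0.114 (adjusted p = 0.0302, or 0.06597 with the library labelled WT_day 3 left out). Of 8 markers of pericytes and smooth muscle 1 rose, the receptor gene Pdgfrb, by 0.32 ± 0.0675 (adjusted p = 0.0302, or 0.0746 with the library labelled WT_day 3 left out), with a list median of 0.26. No endothelial marker of 8 passed, though 7 were higher at night, with a list median of 0.13. Kdr was at 0.31 (adjusted p = 0.0732), and Ly6c1, the 1 that was lower, at -0.31 (adjusted p = 0.0583). The summed level of the 8 was 177 to 197 CPM at night and 171 to 174 CPM by day, without overlap.

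A list of 55 collagens and laminins, put together after these values were seen, held 8 that rose and none that fell, with 41 higher at night and a median of 0.10. Without the library labelled WT_day 3, 3 of them rose (Col1a1, Col1a2 and Col5a1), and 2 without both doubted libraries. Col5a1, which regulates fibril diameter, had 5.18 to 6.28 CPM at night and 3.79 to 4.44 CPM by day and rose by 0.46 ± 0.0819 (adjusted p = 0.0174, or 0.0474 with the library labelled WT_day 3 left out and 0.0584 without both). Lama4 and Lamc3, laminin chains of basement membrane, rose by 0.45 (adjusted p = 0.0281, or 0.0693 with the library labelled WT_day 3 left out) and 0.46 (adjusted p = 0.03901, or 0.0632 with the library labelled WT_day 3 left out). Hspg2, the basement membrane proteoglycan perlecan, chosen after its values were seen, rose by 0.47 ± 0.08299 (adjusted p = 0.0174, or 0.0361 with the library labelled WT_day 3 left out and 0.0372 without both).

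Through the Notch and Hedgehog pathways neighbouring cells signal to each other. In a list of 21 genes of these pathways, also put together after the values were seen, 6 rose, by 0.26 to 0.53, none fell and 15 did not pass, with 14 higher at night and a median of 0.11. Without the library labelled WT_day 3, 5 rose, and without both doubted libraries 1 did, Notch3. Notch3 had 27.7, 30.4, 28.9, 28.3 and 27.6 CPM at night and 23.3, 22.6, 23.5, 24.2 and 21.9 CPM by day and rose by 0.31 ± 0.0417 (adjusted p = 0.00439, 0.0179 with the library labelled WT_day 3 left out and 0.0279 without both). Notch1 was at 34.6 ± 0.896 CPM at night and 28.4 ± 1.94 CPM by day and rose by 0.29 ± 0.0458 (adjusted p = 0.0115, or 0.0357 with the library labelled WT_day 3 left out and 0.0572 without both). Hes5, a target of Notch in neural progenitors and astrocytes, was at 11.6 ± 0.701 CPM at night and 8.61 ± 0.737 CPM by day and rose by 0.43 ± 0.0698 (adjusted p = 0.0124, or 0.0334 with the library labelled WT_day 3 left out and 0.0559 without both). Hes1, another Notch target, was at -0.27 (adjusted p = 0.186).

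On the Hedgehog side the receptor Ptch1 and the factor Gli1, themselves targets of the pathway, rose. Ptch1 was at 134 ± 6.67 CPM at night and 112 ± 4.72 CPM by day (0.26 ± 0.0443, adjusted p = 0.0153, or 0.0441 with the library labelled WT_day 3 left out and 0.0559 without both). Gli1 had 4.49, 4.44, 4.43, 4.73 and 4.58 CPM at night and 3.06, 3.302, 2.96, 3.68 and 2.74 CPM by day (0.53 ± 0.0895, adjusted p = 0.0153, or 0.0463 with the library labelled WT_day 3 left out and 0.07696 without both). Gli3 rose by 0.30 ± 0.0723 (adjusted p = 0.0495) but not without the library labelled WT_day 3 (adjusted p = 0.1102). In Notch1, Notch3, Hes5, Ptch1 and Gli1 no day value reached the lowest night value. Of 9 large cadherins of planar polarity, another list made after the values were seen, 5 rose and all 9 were higher (8 without that library or with the length trend removed), with a median of 0.27. Without that library 3 rose, and 3 without both doubted libraries. Fat4 (chromosome 3, 38886940 to 39011985) had 31.98, 34.3, 33.7, 34.3 and 32.5 CPM at night and 27.1, 26.8, 27.5, 25.4 and 25.1 CPM by day and rose by 0.34 ± 0.0393 (adjusted p = 0.00284, 0.00879 with the library labelled WT_day 3 left out and 0.01896 without both doubted libraries). Celsr2 was at 80.4 ± 4.75 CPM at night and 62.7 ± 4.88 CPM by day (0.36 ± 0.0563, adjusted p = 0.0111, or 0.0334 with the library labelled WT_day 3 left out and 0.0294 without both), and Dchs1, a partner of Fat4, rose by 0.29 ± 0.0451 (adjusted p = 0.0111, or 0.0184 with the library labelled WT_day 3 left out and 0.0254 without both). Fat1 rose by 0.21 and Celsr1 by 0.27, but neither passed without the library labelled WT_day 3. Fat2 had by far the largest difference of the 9, 1.93 ± 0.507, but did not pass (adjusted p = 0.064).

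Levels also moved with gene length, but not alike in all night libraries. Over 3 equal sets of the genes tested, split by length, the median difference was 0.05 in genes of 34533 bases or more, where 115 rose and 23 fell, -0.025 in the middle set (40 and 81), and -0.053 in genes of up to 9188 bases (11 and 112). In the long set the median log2 deviation from each gene's mean was 0.039, 0.015, 0.086, -0.044 and 0.0 in WT_night 1 to 5. By day it was -0.031 to -0.004, so WT_night 4 lay below every day library. After the trend with length was removed from each library the counts were 65 and 65, 83 and 68, and 46 and 61, and 389 genes passed in all (1.82%), 195 rising (0.912%) and 194 falling (0.907%), 258 of them among the 383. Notch3 (0.29, adjusted p = 0.00407), Fat4 (0.28, 0.00844), Celsr2 (0.37, 0.004204) and Gli1 (0.57, 0.008201) still passed, while Fat1 (0.15, 0.0788) and Celsr1 (0.20, 0.115) did not. Among the larger changes Cyp26b1 (1.58, 0.00844), Col1a1 (0.84, 0.004204), Fosb (-1.73, 0.00314) and Dbp (-0.40, 0.0169) passed with it removed.

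**Figure D4:**
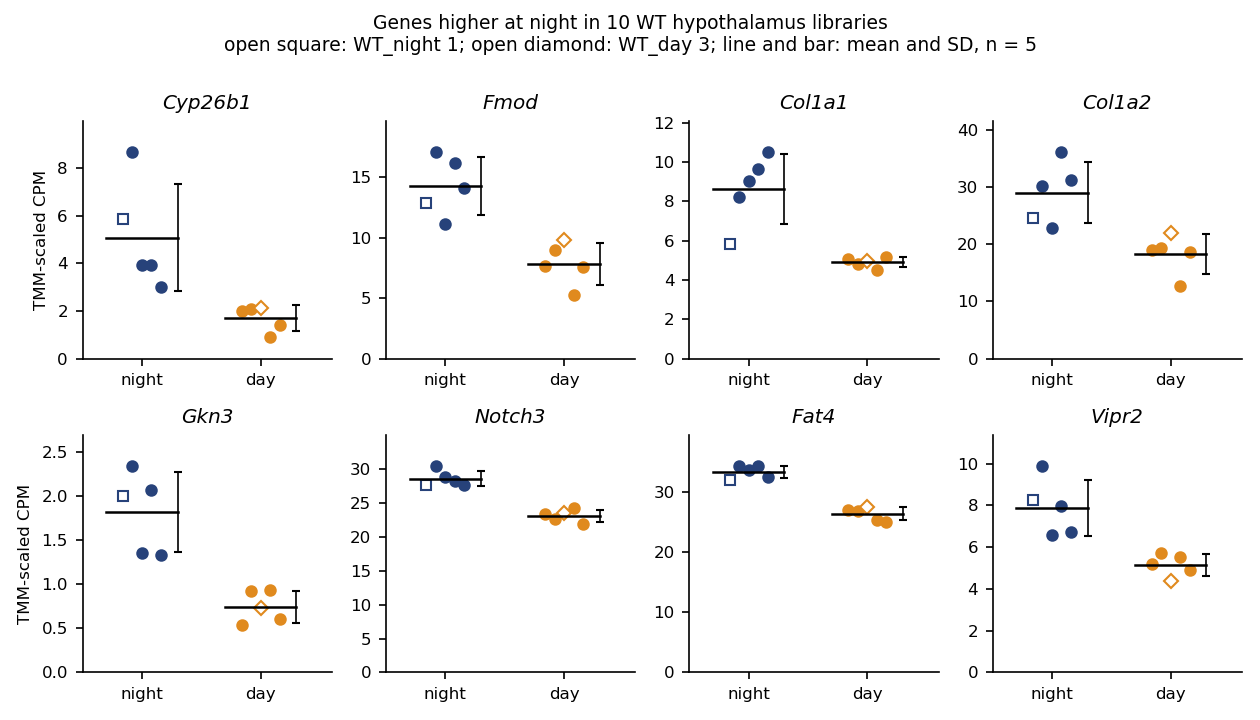
Level in CPM of 8 genes that rose at night, in each library, night left of day, with group means and SDs (n = 5). Fmod, Col1a1 and Col1a2 encode matrix proteins, Gkn3 a gastrokine of arterial endothelium, Notch3 and Fat4 surface receptors and Vipr2 a peptide receptor of clock neurons. In all 8 panels the lowest night value lies above the highest day value, and Cyp26b1 varies most between night libraries.

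In the lists of neuropeptides and receptors only single genes passed. Of 21 feeding genes 1 fell, none rose and 5 were higher, with a median of -0.14. Over all genes tested 1.01% fell and 49.7% were higher, so 1 call in so short a list says little about the list. The feeding gene that fell was Crh, the releasing hormone of the stress axis. It had 2.63, 3.52, 3.05, 2.66 and 3.101 CPM at night and 3.37, 3.67, 4.92, 4.88 and 4.99 CPM by day. WT_night 2 lay above WT_day 1, and Crh fell by 0.55 ± 0.129 (adjusted p = 0.0476, or 0.126 with the library labelled WT_day 3 left out). Agrp, which encodes the hunger peptide of the arcuate nucleus, had 26.7 to 28.5 CPM at night and 24.4 to 27.1 CPM by day (0.13 ± 0.0386, adjusted p = 0.0801). Its partner Npy was at -0.25 ± 0.146 (adjusted p = 0.363), the leptin receptor gene Lepr at 0.27 ± 0.06899 (adjusted p = 0.0612), Pmch at -0.25 ± 0.0755 (adjusted p = 0.0894), Gal at -0.22 ± 0.0626 (adjusted p = 0.0819) and Hcrt at -0.17 ± 0.0687 (adjusted p = 0.186). Pomc was at -0.55 ± 0.329 (adjusted p = 0.372), with 102 CPM in WT_day 1, the library in which the summed pituitary markers were highest.

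In the remaining hypothalamic lists single genes passed or none. Oxt, the gene of oxytocin, had 154 to 197 CPM at night and 191 to 269.8 CPM by day (-0.32 ± 0.0944, adjusted p = 0.08697, or 0.204 with the library labelled WT_day 3 left out, which was the highest), and Avp was at -0.20 ± 0.102 (adjusted p = 0.284). None of the 8 genes of that list passed. Sstr2, a somatostatin receptor, had 5.29, 6.31, 5.68, 6.23 and 6.23 CPM at night and 7.89, 7.03, 7.95, 7.84 and 7.84 CPM by day and fell by 0.38 ± 0.0711 (adjusted p = 0.0216, or 0.0666 with the library labelled WT_day 3 left out), the 1 of 12 genes of the reproduction and growth axis that passed. None of 12 histamine and sleep-linked genes passed, with Ptgds, the prostaglandin D synthase that is also made in meninges, at 0.47 ± 0.177 (adjusted p = 0.154). Neither did any of 7 genes of thyroid hormone handling, 14 heat shock genes, 16 genes of the unfolded protein response, 10 interferon-stimulated genes or 13 mitochondrially encoded genes. The cold-induced genes Cirbp and Rbm3, which follow body temperature, were at -0.15 ± 0.0906 (adjusted p = 0.392) and 0.09 ± 0.0691 (adjusted p = 0.513).

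**Figure D5:**
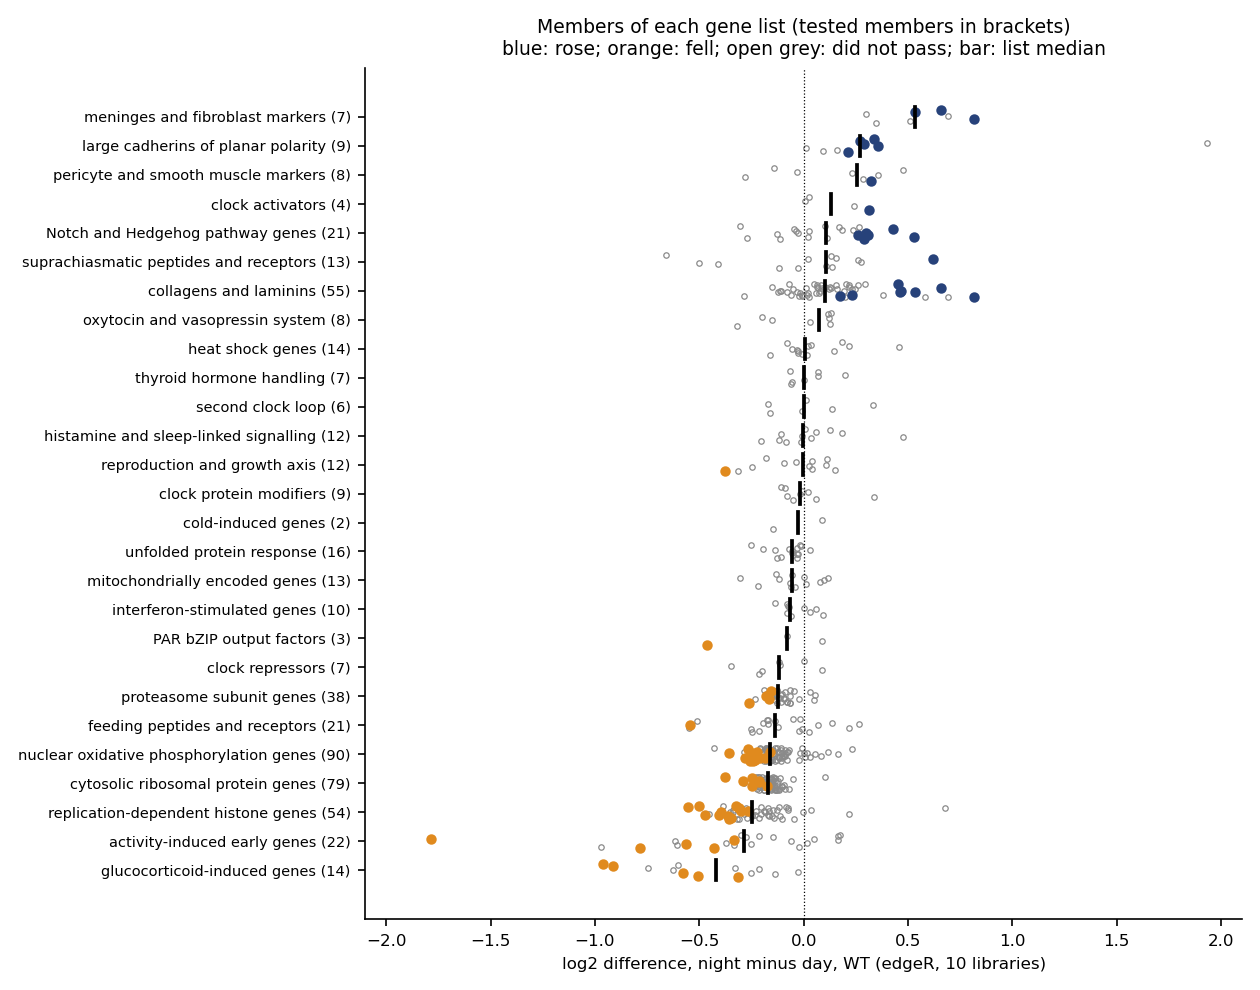
Log2 difference, night minus day, of every tested member of 27 gene lists, ordered by list median (black bar). Filled blue points rose, filled orange points fell and open grey points did not pass. Of the lists drawn, glucocorticoid-induced genes have the lowest median, -0.42, and markers of meninges and fibroblasts the highest, 0.53.

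Genes for ribosomal proteins, oxidative phosphorylation, histones and the proteasome lay mostly lower at night, but not in every night library. The summed ribosomal protein genes had 7178, 7221, 6749, 8368 and 7880 CPM in WT_night 1 to 5 and 7864 to 8597 CPM by day. For oxidative phosphorylation these were 5222, 5262, 4981, 5795 and 5452 against 5777 to 5955 CPM, so WT_night 4 overlapped the day range in both. Histone sums (426 to 542 against 548 to 624) and proteasome sums (1692 to 1860 against 1894 to 1938) did not overlap. Of 79 cytosolic ribosomal protein genes 7 fell, none rose and 1 was higher, with a median of -0.17, and none passed without the library labelled WT_day 3. Rpl22l1, a paralogue of Rpl22, had the largest fall of these, 0.38 ± 0.0671 (adjusted p = 0.0174, or 0.0518 with the library labelled WT_day 3 left out). Reads of such genes can be split with near-identical pseudogenes, so single members are uncertain. Of 90 nuclear genes of oxidative phosphorylation 12 fell and 9 were higher, with a median of -0.16, and again none passed without that library. The largest fall among the 12 was that of Atp5e, a subunit of ATP synthase, at 33.2 ± 3.04 CPM at night and 42.6 ± 3.27 CPM by day (-0.36 ± 0.0644, adjusted p = 0.0174, or 0.0521 with the library labelled WT_day 3 left out).

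Of 54 replication-dependent histone genes, a list made after the values were seen, 12 fell and 3 were higher, with a median of -0.25. Of these genes 4 fell without the library labelled WT_day 3 and 0 without both doubted libraries. Hist2h2ac was at 9.99 ± 1.09 CPM at night and 14.2 ± 1.504 CPM by day (-0.50 ± 0.0854, adjusted p = 0.0155, or 0.0357 with the library labelled WT_day 3 left out and 0.0559 without both), and Hist1h1c had 27.3 to 32.7 CPM at night and 35.5 to 53.5 CPM by day (-0.47 ± 0.104, adjusted p = 0.0376, or 0.0463 with the library labelled WT_day 3 left out and 0.078 without both). Most of these genes have near-identical copies among which reads can be split. Of 38 proteasome subunit genes, again a list made after the values were seen, 4 fell and 3 were higher, with a median of -0.12. Psmb3, a core subunit, had 26.4, 26.8, 25.2, 26.6 and 26.1 CPM at night and 31.2, 31.99, 31.6, 32.1 and 30.4 CPM by day and fell by 0.26 ± 0.0347 (adjusted p = 0.00403, or 0.0184 with the library labelled WT_day 3 left out and 0.0421 without both), without overlap. With the length trend removed 4 ribosomal protein, 10 oxidative phosphorylation, 6 histone and 4 proteasome genes fell.

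Markers of neurons, glia and neighbouring regions were counted too, where 1.79% of all genes tested passed. No marker passed for neurons (7 tested, median -0.03), astrocytes (8, 0.01), oligodendrocytes (8, 0.01), their precursors (6, 0.11), microglia (8, -0.08), tanycytes and ependyma (8, -0.01), choroid plexus (8, 0.09), pituitary (8, -0.87), blood (5, 0.07), thalamus (6, 0.07), cortex and hippocampus (7, 0.15) or striatum (7, -0.11). In the thalamus list Synpo2, at 0.33 ± 0.09397 (adjusted p = 0.0748), passed without the library labelled WT_day 3 (0.43, adjusted p = 0.0463, or 0.0341 without both). Of 4 sex-linked genes none passed either.

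In the KO mice, which lack Magel2 and Ndn, the same night-day difference could be set up from the 5 libraries whose time labels do not conflict, KO_night 4 and 5 against KO_day 3, 4 and 5. There 13 genes passed of 22883 (0.0568%), 8 rising (0.035%) and 5 falling (0.0219%), and 4 of them also passed in WT with the same direction. Dbp was among these, falling by 0.78 ± 0.116 in KO (adjusted p = 0.0161) against 0.47 ± 0.0778 in WT. Of the 383 WT genes 278 (72.6%) had the same sign in KO, against 52.3% of all 21393 genes. List medians in KO were 0.09 for glucocorticoid-induced, 0.04 for early and 0.13 for histone genes, against -0.42, -0.29 and -0.25 in WT. Markers of meninges and fibroblasts were at 0.04 and large cadherins at 0.02, against 0.53 and 0.27. Without the library labelled WT_day 3 the WT medians were, in the same order, -0.27, -0.27, -0.245, 0.65 and 0.27. Closer to WT were Notch and Hedgehog (0.125), ribosomal protein (-0.11), oxidative phosphorylation (-0.08) and proteasome genes (-0.06). These medians were not tested. Fewer KO libraries were used than WT libraries, so the counts are not on the same footing. The KO differences of other named genes were 0.12 ± 0.0838 for Arntl, -0.55 ± 0.318 for Fosb, -0.36 ± 0.152 for Mt2, 0.32 ± 0.129 for Tsc22d3, 0.03 ± 0.243 for Zbtb16 and -0.30 ± 0.281 for Col1a1.

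The difference between KO and WT was itself tested as an interaction. No gene of 22883 passed (0%), while 2461 had an unadjusted p under 0.05, and with no filter on low counts 45 passed. With the library labelled WT_day 3 left out, 3 genes of 22805 passed. The p-values given next include that library. The adjusted p of the interaction was 0.109 for Tsc22d3, 0.277 for Zbtb16, 0.313 for Fosb and 0.419 for Dbp. A p over the threshold with 5 KO libraries does not show that the genotypes have the same night-day difference.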

How the data were processed

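Paired-end, strand-specific libraries were made from rRNA-depleted total RNA, per the labels. What the authors deposited is a table of unnormalised counts for each library, with HISAT2, mm10 and featureCounts named in the submitters' processing notes. Versions, annotation release and strand setting are not given in the sources used here, and the counts were checked and do not separate strands. Of 53801 gene identifiers 53706 matched GENCODE M21 (GRCm38), and 35709 had a count in a WT library.

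Groups were taken from the titles, except KO_day 5, whose time was taken from the time field. WT_day 5 repeats the title number of another library and was given the number 5. Genes were tested with edgeR 4.0.16 (TMM factors, low counts filtered by filterByExpr at 10, quasi-likelihood F-test, Benjamini-Hochberg adjusted p under 0.05) in R 4.3.3 on the 10 WT libraries alone. The KO comparison and the interaction used these and the 5 KO libraries whose time labels do not conflict. The standard error is the absolute log2 difference divided by the square root of F. The gene length trend was removed through offsets with a lowess span of 0.3. The edgeR test of night against day in WT, with and without the length trend removed, was checked on simulated counts. The other steps were not. Total counts of the 10 WT libraries ran from 34221129 to 48697647, with a common BCV (biological coefficient of variation) of 0.083. No pair of libraries in a group was a duplicate (chi-square per degree of freedom 5.58 to 41.4 over 20 pairs). Same-numbered night and day libraries did not deviate together across genes (r = -0.119 to -0.045). Such a correlation cannot exclude a pairing that acts on some genes only. The labels give no pairing, and the libraries were tested as unpaired.

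Named genes were every tested clock gene, the 15 largest rises and 15 largest falls among genes that passed with a mean of at least 1 CPM, up to 4 members of each other list by p, and Ndn and Magel2. Other genes were named after their values were seen, and a few results are not reported here. The comparison and lists were chosen with earlier results of these data known. Alternatives were DESeq2 1.42.0 size factors and Wald test, no filter on low counts, all 20 libraries, the time field, the length trend, totals without mitochondrial genes, a replicate block and leaving out libraries. Promoter sequences are from RefSeq (GRCm38.p6).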

Additional observations from a re-analysis of the deposited data

Results flagged for a closer look

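In 23 of 312 groups of 5 libraries checked (7.4%), 1 library stood apart from the other 4 by Dixon's criterion, where chance flags about 1 in 20. The library labelled WT_day 3 stood apart from the other day libraries at both deleted genes, with 30.9 CPM of Ndn (others 247 to 275) and 2.15 CPM of Magel2 (others 15.6 to 18.0). It stood apart by the same criterion, on the high side, in 4 glucocorticoid-induced genes, with 93.2 CPM of Sgk1 (others 32.6 to 41.1), 74.1 CPM of Klf9 (others 53.8 to 58.0), 16.5 CPM of Nfkbia (others 9.46 to 10.6) and 28.8 CPM of Errfi1 (others 22.4 to 24.1).

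WT_night 3 stood apart in Npas2 with 29.0 CPM (other night libraries 22.1 to 22.8), in Gli3 with 27.0 CPM (others 21.5 to 22.6) and in the summed neuron markers with 2142 CPM (others 1939 to 1993). WT_night 2 stood apart in Egr4 with 0.698 CPM (others 0.290 to 0.384). WT_night 4 was high in summed pituitary markers with 201 CPM (others 31.5 to 73.4) and in summed blood markers with 563 CPM (others 287 to 341).

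Among the day libraries, WT_day 1 was apart in summed pituitary markers with 886 CPM (others 49.0 to 145), Pomc with 102 CPM (others 25.8 to 42.2), Timeless with 2.35 CPM (others 2.67 to 2.79), summed oligodendrocyte markers with 2357 CPM (others 2158 to 2204) and summed cortex and hippocampus markers with 41.2 CPM (others 36.9 to 37.9). WT_day 2 was apart in Sstr2 with 7.03 CPM (others 7.84 to 7.95), Ptch1 with 120 CPM (others 109 to 111) and Lama4 with 10.2 CPM (others 7.36 to 7.92). WT_day 4 was low in Junb with 15.1 CPM (others 17.9 to 18.6). WT_day 5 was high in Pdgfd with 36.8 CPM (others 31.3 to 32.7) and in summed blood markers with 646 CPM (others 239 to 333).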

How the results depend on the processing

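No gene in the text that passed changed its direction under any alternative run, while differences near 0 that had not passed did in some, such as those of Clock, Rorb and Nfil3, and the split of rises and falls turned without mitochondrial genes. The 383 genes became 1042 with DESeq2, 61 with all 20 libraries in the fit, 1 with the time field in place of the title, 37 without WT_day 3 and WT_night 1, and 48 to 1849 when 1 library was left out. With alternatives chosen after seeing the data they became 721 without WT_night 3 and WT_night 4, and 141 with the length trend removed and WT_day 3 left out. The 85 genes found without WT_day 3 became 246 with no filter on low counts, 460 with DESeq2, 12 with all other libraries in the fit, 1 with the time field, 141 with the length trend removed, and from 9 (without WT_night 2) to 727 (without WT_night 4) when a further library was left out. The interaction with genotype had 45 genes with no filter, 0 to 18 when 1 library was left out (18 without WT_night 4) and 2 without WT_day 3 and WT_night 1 (chosen after seeing the data). In each case the cause was not tested. With the replicate number as a block 43 of all and 40 without WT_day 3 passed, and 0 for the interaction. By their labels the samples share only a number, and no deviation of a night library correlated above 0 with that of the same-numbered day library. Whether they are paired was not settled. Of the 72 genes in the text that passed, 72 passed with other size factors and with DESeq2, 71 with no filter, 63 with the length trend removed, 33 with all libraries, 27 with the block, 25 without WT_day 3 and WT_night 1, 1 with the time field, and from 30 (without WT_day 5) to 72 (without WT_night 4) when 1 library was left out.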

Other observations

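Outside the lists, several genes of lipid handling changed and passed without the library labelled WT_day 3. They were chosen after their values were seen. Pnpla7, a lysophospholipase, had 19.3, 18.7, 16.97, 17.5 and 18.4 CPM at night and 23.2, 24.3, 25.04, 27.7 and 31.1 CPM by day, without overlap, and fell by 0.53 ± 0.0709 (adjusted p = 0.00403, or 0.01199 with it left out and 0.02702 without both). Adipor2, a receptor for adiponectin, had 50.9, 49.3, 47.4, 49.1 and 47.5 CPM at night and 59.6, 62.4, 70.7, 55.6 and 58.99 CPM by day and fell by 0.33 ± 0.0549 (adjusted p = 0.0135, or 0.0184 with it left out and 0.0294 without both). Dgat2, which makes triglyceride, was at 15.1 ± 0.654 CPM at night and 18.7 ± 0.787 CPM by day and fell by 0.30 ± 0.0487 (adjusted p = 0.0115, or 0.0431 with it left out and 0.0713 without both). Acer2, a ceramidase, fell by 0.41 ± 0.0804 (adjusted p = 0.0234, or 0.0287 with it left out and 0.0413 without both). Lrp1, an endocytic receptor of lipoproteins and other ligands, was at 368 ± 22.7 CPM at night and 307 ± 17.5 CPM by day and rose by 0.26 ± 0.0511 (adjusted p = 0.0242, or 0.0429 with it left out and 0.0294 without both). In KO the log2 differences were 0.06 ± 0.127 for Pnpla7, 0.16 ± 0.0785 for Adipor2, -0.24 ± 0.0706 for Dgat2, 0.27 ± 0.111 for Acer2 and 0.04 ± 0.0804 for Lrp1, and no interaction passed in the main fit.

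Other genes that passed each time 1 library was left out were Arrdc3, Coq10b, Srxn1 and Pdgfd, and each also passed with the library labelled WT_day 3 left out, which the second p gives. Arrdc3, an arrestin of the same family as Txnip, had 45.3 to 55.6 CPM at night and 60.5 to 68.4 CPM by day and fell by 0.36 ± 0.05597 (adjusted p = 0.0111, or 0.0327 with it left out and 0.0559 without both). Coq10b, which serves coenzyme Q in mitochondria, had 14.6 to 15.8 CPM at night and 17.3 to 19.96 CPM by day and fell by 0.33 ± 0.0522 (adjusted p = 0.0111, or 0.0431 with it left out and 0.0559 without both), and in KO by 0.53 ± 0.0888 (adjusted p = 0.0274). Srxn1, which repairs oxidised peroxiredoxins, fell by 0.30 ± 0.0397 (adjusted p = 0.00403, or 0.0184 with it left out and 0.0421 without both) and the growth factor gene Pdgfd by 0.34 ± 0.0548 (adjusted p = 0.0115, or 0.0357 with it left out and 0.0412 without both).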
